A study of Mus musculus with 17 samples.

Results

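The 10 tumour lines of this series were grouped by their level of Myod1, the gene of a master transcription factor of skeletal muscle. A line was placed among the Myod1-high lines when Myod1 reached 100 CPM (the count of the gene scaled to the total count of its library) and among the Myod1-low lines when it did not. The rule put 5 lines in the Myod1-high group and 5 in the Myod1-low group, out of 10 tumour lines and 17 libraries in the series. The measured Myod1 values themselves chose the lines, so Myod1 is described here and not tested, and the same holds for Cdh15 and Myog, which were named together with the split.

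RNA was sequenced from mouse cells of R172H knock-in C57BL/6 animals, which carry a mutant p53, and the KO clones are labelled as p53 KO. The Myod1-high lines were first generation lines 482, 464, 468 and 471 and second generation line 467. The Myod1-low lines were first generation lines 483 and 476 and second generation lines 466, 477 and 469. The lines are labelled as derived from tumours of bone marrow mesenchymal stem cells (MSC) and, per the labels' protocols, were grown on agar coated plates in medium with leukemia inhibitory factor. Besides the 10 lines there were 2 p53 KO clones and 2 p53 Mut clones of first generation lines, and 3 MSC samples. The titles also give each line and each MSC sample a number. Number 1 holds line 482 among the Myod1-high lines and lines 483 and 466 among the Myod1-low lines. Number 2 holds lines 467 and 464 of the high group and lines 477 and 476 of the low group, and number 3 holds lines 468 and 471 of the high group and line 469 of the low group. All cells were kept at passage 2 to 20, and the labels do not say that libraries came from separate animals or cultures, so p-values measure the spread between these libraries. Total counts ran from 12540701 to 15962341 in the 10 lines and from 12215025 to 13783786 in the other 7 libraries.

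Skeletal muscle forms when precursor cells that carry Pax3 or Pax7 switch on the determination factors Myf5 and Myod1, become myoblasts, leave the cell cycle, and then switch on Myog, fuse into myotubes and build the contractile apparatus. Myod1 is a basic helix-loop-helix protein that binds E-box sequences with E protein partners, cooperates with Mef2 factors, and is held back by Id and Twist proteins. Cdh15 encodes M-cadherin, an adhesion protein of satellite cells and myoblasts, and Myog encodes myogenin, the factor of terminal differentiation.

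Promoters are shown for the 2 genes named with the split, Cdh15 and Myog, and for Tnni1 and Chrna1. Tnni1 is a sarcomere gene whose level narrowly separated the groups, and Chrna1 an acetylcholine receptor gene whose level did not. The sequences are from RefSeq on GRCm38.p6, run from 250 bases before to 50 bases after the annotated start, and are written 5′ to 3′ on the strand of the gene. Capitals mark the E-box, CANNTG, which reads the same pattern on both strands. Of 10 genes looked for, 8 had a promoter in the table. The intervals are chr8:122848124-122848423 on the plus strand for Cdh15, chr1:134289754-134290053 on the plus strand for Myog, chr1:135799171-135799470 on the plus strand for Tnni1, the first of 2 starts in the table, and chr2:73580289-73580588 on the minus strand for Chrna1.
Cdh15: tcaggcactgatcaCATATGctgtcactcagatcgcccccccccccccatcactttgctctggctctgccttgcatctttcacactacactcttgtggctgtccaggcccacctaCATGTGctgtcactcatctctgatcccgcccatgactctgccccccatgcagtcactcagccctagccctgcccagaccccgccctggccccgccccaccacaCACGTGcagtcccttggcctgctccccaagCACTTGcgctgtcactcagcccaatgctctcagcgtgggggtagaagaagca
Myog: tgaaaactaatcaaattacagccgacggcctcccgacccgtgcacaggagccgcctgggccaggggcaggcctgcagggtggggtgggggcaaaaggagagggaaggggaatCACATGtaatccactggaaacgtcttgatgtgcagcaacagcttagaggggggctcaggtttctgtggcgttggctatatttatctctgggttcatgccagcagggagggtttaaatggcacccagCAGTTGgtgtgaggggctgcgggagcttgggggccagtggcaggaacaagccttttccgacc
Tnni1: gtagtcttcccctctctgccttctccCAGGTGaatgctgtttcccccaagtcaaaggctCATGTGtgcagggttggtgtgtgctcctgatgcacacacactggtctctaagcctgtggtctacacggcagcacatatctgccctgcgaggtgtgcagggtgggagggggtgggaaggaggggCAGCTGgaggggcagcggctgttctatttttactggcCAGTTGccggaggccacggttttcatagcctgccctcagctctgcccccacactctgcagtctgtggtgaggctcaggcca
Chrna1: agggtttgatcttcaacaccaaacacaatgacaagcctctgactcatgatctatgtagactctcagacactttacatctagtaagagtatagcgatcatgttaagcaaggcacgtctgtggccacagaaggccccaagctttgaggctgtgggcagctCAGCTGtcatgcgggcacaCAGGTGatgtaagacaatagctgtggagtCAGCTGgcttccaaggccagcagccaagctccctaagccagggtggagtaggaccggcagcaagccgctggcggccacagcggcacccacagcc

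The Cdh15 window held 4 matches to CANNTG, the Myog window 2, the Tnni1 window 4 and the Chrna1 window 3. Among 27025 mouse promoters of the same length, 72.1% held at least 1 match, with a mean of 1.39. The narrower form CAGCTG, which is one of the forms of CANNTG, occurred in 16.1% of all promoters, at 2 places in the Chrna1 window, at 1 in the Tnni1 window and at 0 in the Cdh15 and Myog windows. The forms CAGGTG or CACCTG, which are the same sequence read on opposite strands, occurred in 20.0% of all promoters, at 1 place each in the Chrna1 and Tnni1 windows and at 0 in the other 2. A match in these letters is a description and not a binding site.

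On plain CPM, the scale of the rule, the Myod1-high lines just inside the limit were line 464 at 125.65 CPM and line 471 at 122.96 CPM, and the Myod1-low lines just outside it were line 477 at 69.919 CPM and line 483 at 63.945 CPM. All further CPM values are scaled by edgeR's trimmed mean of M-values (TMM) over the 17 libraries, and they compare libraries for 1 gene, not genes with each other, since they are not per length. On that scale Myod1 was at 571.6 CPM in line 482, 550.4 in line 468, 303.2 in line 467, 130.0 in line 464 and 115.2 in line 471 of the Myod1-high group. The Myod1-low group held 69.6 CPM in line 477, 60.5 in line 483, 36.1 in line 476, 7.55 in line 466 and 0.129 in line 469. The low group was therefore a graded set, with 3 lines that had a clear Myod1 signal, 1 with little and line 469 with 2 counts. In bulk RNA, fewer cells of a type and less RNA per cell cannot be told apart.

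Cdh15 ordered the lines in a similar way. It was at 393.6, 244.9, 142.7, 256.6 and 64.1 CPM in Myod1-high lines 482, 468, 467, 464 and 471, and at 122.3, 46.3, 64.2, 88.8 and 1.09 CPM in Myod1-low lines 477, 483, 476, 466 and 469. The groups overlapped, because line 471 of the high group lay below lines 477, 476 and 466 of the low group. The means were 220 ± 125 CPM in Myod1-high lines and 64.5 ± 45.5 CPM in Myod1-low lines (SD, n = 5 each), and the Spearman correlation with Myod1 over the 10 lines was 0.818.

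Myog was at 21.3, 265, 4.41, 14.05 and 6.28 CPM in Myod1-high lines 482, 468, 467, 464 and 471, and at 7.77, 1.104, 3.94, 0.131 and 0 CPM in Myod1-low lines 477, 483, 476, 466 and 469. Line 468 stood alone with its high level. Myod1-low line 477 exceeded Myod1-high lines 467 and 471. The Spearman correlation of Myog with Myod1 over the lines was 0.891, and lines share their number and cell source, so this is a description.

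Libraries that the rule did not use showed the same genes together. In the 2 KO clones Myod1 was at 327 and 332 CPM, Cdh15 at 1161 and 1127 CPM and Myog at 179 and 238 CPM. In the 2 Mut clones Myod1 was at 0 and 0.159 CPM, Cdh15 at 0.145 and 0.318 CPM and Myog at 0.0725 and 0.0796 CPM. The MSC samples numbered 1, 2 and 3 held 18.2, 4.69 and 0.456 CPM of Myod1. Their Cdh15 was at 9.035, 5.65 and 0.456 CPM and their Myog at 12.05, 1.94 and 1.44 CPM. Myog in MSC sample 1 was thus above its level in Myod1-high lines 467 and 471. Trp53, the targeted gene of the clones, was at 80.8 and 89.6 CPM in KO clones and at 358 and 280 CPM in Mut clones.

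**Figure D1:**
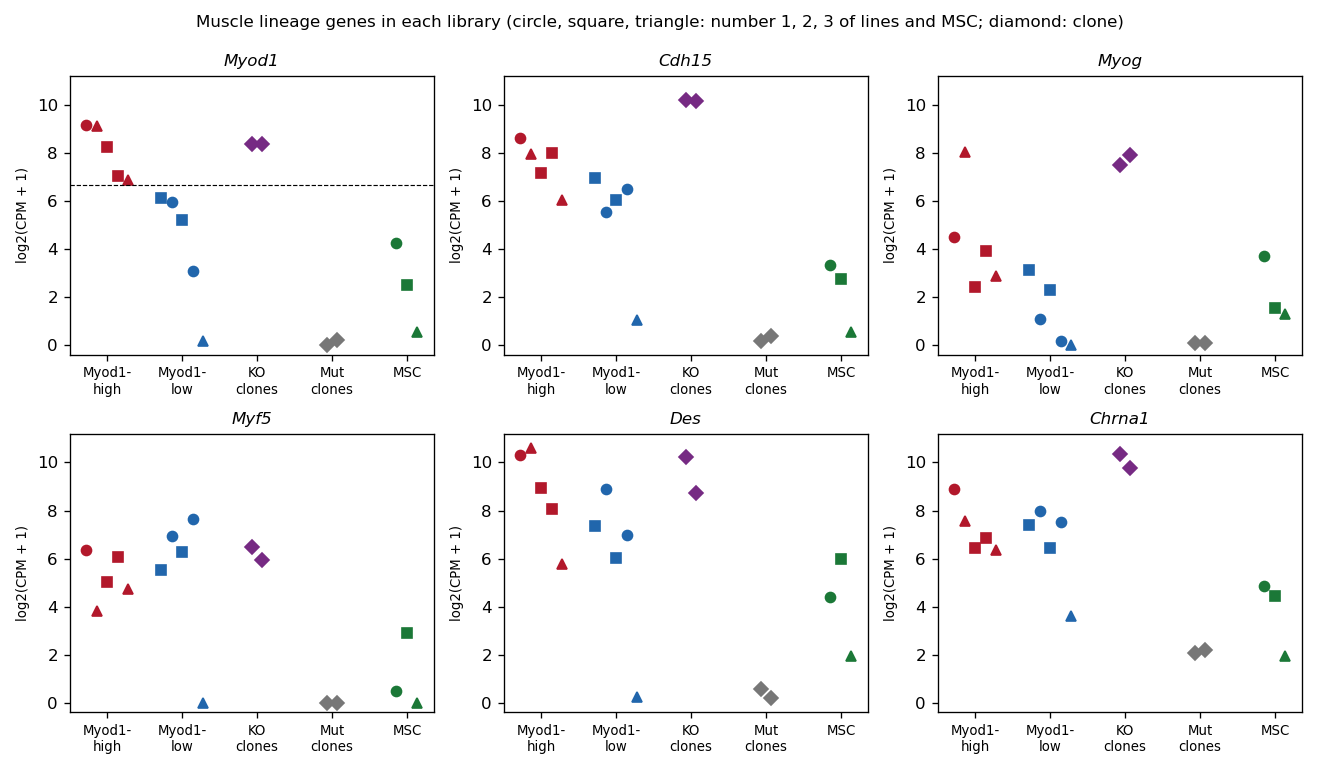
Level of 6 muscle lineage genes as log2(CPM + 1), with TMM-scaled CPM, in each of the 17 libraries, by group from left to right, and 1 point per library; circles, squares and triangles are numbers 1, 2 and 3, diamonds are clones, and the dashed line in the Myod1 panel marks 100 CPM. Myod1-low line 469 (the triangle at the far right of its group) lies at 1.09 CPM for Cdh15 and 0 for Myf5, while the KO clones lie above 1000 CPM for Cdh15.

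The other determination factor, Myf5, did not follow Myod1. It was at 80.9, 12.9, 31.5, 66.9 and 25.8 CPM in Myod1-high lines 482, 468, 467, 464 and 471, and at 45.6, 123, 75.3, 197 and 0 CPM in Myod1-low lines 477, 483, 476, 466 and 469. The highest levels were in Myod1-low lines 466 and 483, both of number 1, and the groups overlapped. The log2 difference of Myod1-high minus Myod1-low lines was -1.03 ± 1.07 (SE), with an adjusted p of 0.888 by edgeR's quasi-likelihood test. Within number 1 the Myod1-high minus Myod1-low difference of Myf5 was -0.939 on the log2(CPM + 1) scale, and within number 3 it was 4.27.

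The precursor factors were low. Pax7, which marks satellite cells, had 0 counts in all 10 lines, which allows up to 0.188 to 0.239 CPM on the plain scale, for counting error only. Pax3 ran from 0 to 9.09 CPM in Myod1-high lines and from 0.129 to 17.3 CPM in Myod1-low lines, with the highest levels in lines 483 and 466. Checked against the myoblast markers Myod1, Cdh15, Myog, Myf5 and Des, Myod1-low line 469 lacked the set, at 0.129, 1.09, 0, 0 and 0.193 CPM, and line 466 had Myf5, Cdh15 and Des with Myog at 0.131 CPM.

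Across all genes, no gene was called between the groups. edgeR's quasi-likelihood test covered 12300 genes, without Myod1, and called 0 higher and 0 lower at an adjusted p under 0.05, which is 0% in each direction. The smallest adjusted p was 0.855. At an unadjusted p under 0.05 there were 400 genes with higher and 289 with lower levels in the Myod1-high lines, 689 in all, beside 615 for a test in which no gene differed. limma-voom called 0 and 0 genes, and DESeq2 called 19 higher and 5 lower. The 5 were Impact, the interferon-induced Oas1a, Oasl1 and Cxcl10, and Gpr141, named after their values were seen. The differences were positive for 49.4% of the genes, with a median of -0.0047 on the log2 scale.

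By the ranges of the 5 lines, 43 genes had every Myod1-high line above every Myod1-low line, and 43 had every Myod1-high line below, each 0.35% of the 12300 genes. With 5 lines in each group, genes can separate in this way by chance, so those named below are a description. Correlations of whole profiles, on log2 CPM, ran from 0.840 to 0.953 between Myod1-high lines, from 0.856 to 0.956 between Myod1-low lines, and from 0.821 to 0.961 between a high and a low line. The 3 ranges overlapped over most of their width.

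**Figure D2:**
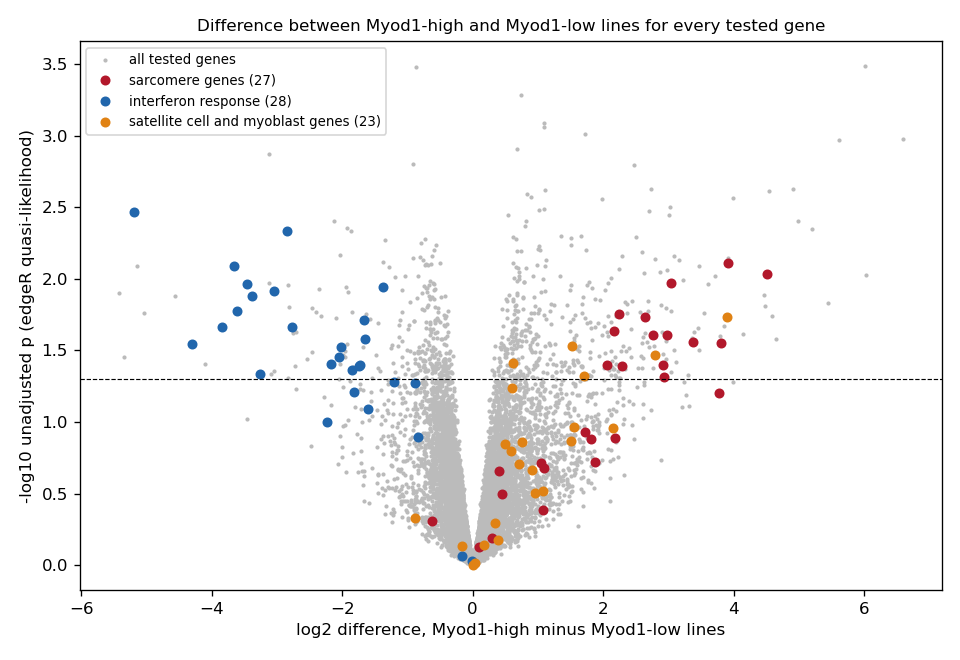
The log2 difference of Myod1-high minus Myod1-low lines (x axis) and the -log10 unadjusted p of edgeR's quasi-likelihood test (y axis), with 1 point per tested gene and 3 gene lists coloured; the dashed line marks an unadjusted p of 0.05, and Cdh15 of the satellite cell and myoblast list is left out because it has no test. Sarcomere genes lie mostly to the right and interferon response genes to the left, and 0 genes passed the adjusted threshold.

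Among the genes that did not overlap, Fndc3c1, an X-linked fibronectin type III domain gene, was near 0 in the Myod1-low lines. It was at 31.1, 7.41, 17.6, 22.2 and 1.79 CPM in Myod1-high lines 482, 468, 467, 464 and 471, and at 0.324, 0, 0.801, 0.0657 and 0 CPM in Myod1-low lines 477, 483, 476, 466 and 469. The log2 difference was 6.02 ± 1.16 (SE), with an adjusted p of 0.855. Cxcr4, the receptor of the chemokine Cxcl12, was at 13.9, 50.4, 1.12, 1.13 and 6.42 CPM in the same Myod1-high lines and at 0, 0.26, 0, 0.46 and 0 CPM in the Myod1-low lines, so the number 2 lines of the high group lay close to the low group.

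Mef2c, a partner of Myod1, was at 4.57, 32.2, 18.98, 7.36 and 4.26 CPM in Myod1-high lines 482, 468, 467, 464 and 471 and at 3.24, 3.38, 0.401, 3.02 and 1.99 CPM in Myod1-low lines 477, 483, 476, 466 and 469. The difference of 2.50 ± 0.714 on the log2 scale had an adjusted p of 0.855, and Myod1-high line 471 lay just above line 483. Fos, of the AP-1 factors, was at 10.6 to 49.2 CPM in Myod1-high lines and 5.13 to 10.2 CPM in Myod1-low lines. Maged1, of the MAGE family, was at 921 to 1533 CPM in Myod1-high lines and 374 to 772 CPM in Myod1-low lines, with a log2 difference within each line number of 1.29, 0.957 and 1.03.

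Marcks, a membrane-bound substrate of protein kinase C, was at 123 to 167 CPM in Myod1-high lines and 77.0 to 106 CPM in Myod1-low lines. Flnc, muscle filamin, was at 322 to 671 CPM in Myod1-high lines and 198 to 315 CPM in Myod1-low lines. Ogdh, a subunit of the 2-oxoglutarate dehydrogenase complex, was at 232 to 284 CPM in Myod1-high lines and 155 to 221 CPM in Myod1-low lines. Magee1, Tbc1d8b and Mxra7 had log2 differences of 0.69, 0.84 and 0.89.

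The named genes that were below in every Myod1-high line had differences of moderate size. Impact, a regulator of translation, was at 33.2, 37.0, 39.6, 40.3 and 45.1 CPM in Myod1-high lines 482, 468, 467, 464 and 471, and at 73.3, 62.4, 90.5, 67.9 and 62.3 CPM in Myod1-low lines 477, 483, 476, 466 and 469. The gap between the groups was wider than the spread within the Myod1-high lines, and the log2 difference was -0.86 ± 0.167 (SE) with an adjusted p of 0.855. Azin1, antizyme inhibitor of polyamine metabolism, was at 126 to 138 CPM in Myod1-high lines and 149 to 230 CPM in Myod1-low lines. Mrps18a, a mitochondrial ribosomal protein, was at 46.7 to 67.4 CPM in Myod1-high lines and 72.8 to 110 CPM in Myod1-low lines. Gtf2ird2, Fam35a, Mfsd10, Ctdp1, Mtbp, Fastkd5 and Gtf2h4 had log2 differences between -0.92 and -0.43.

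**Figure D3:**
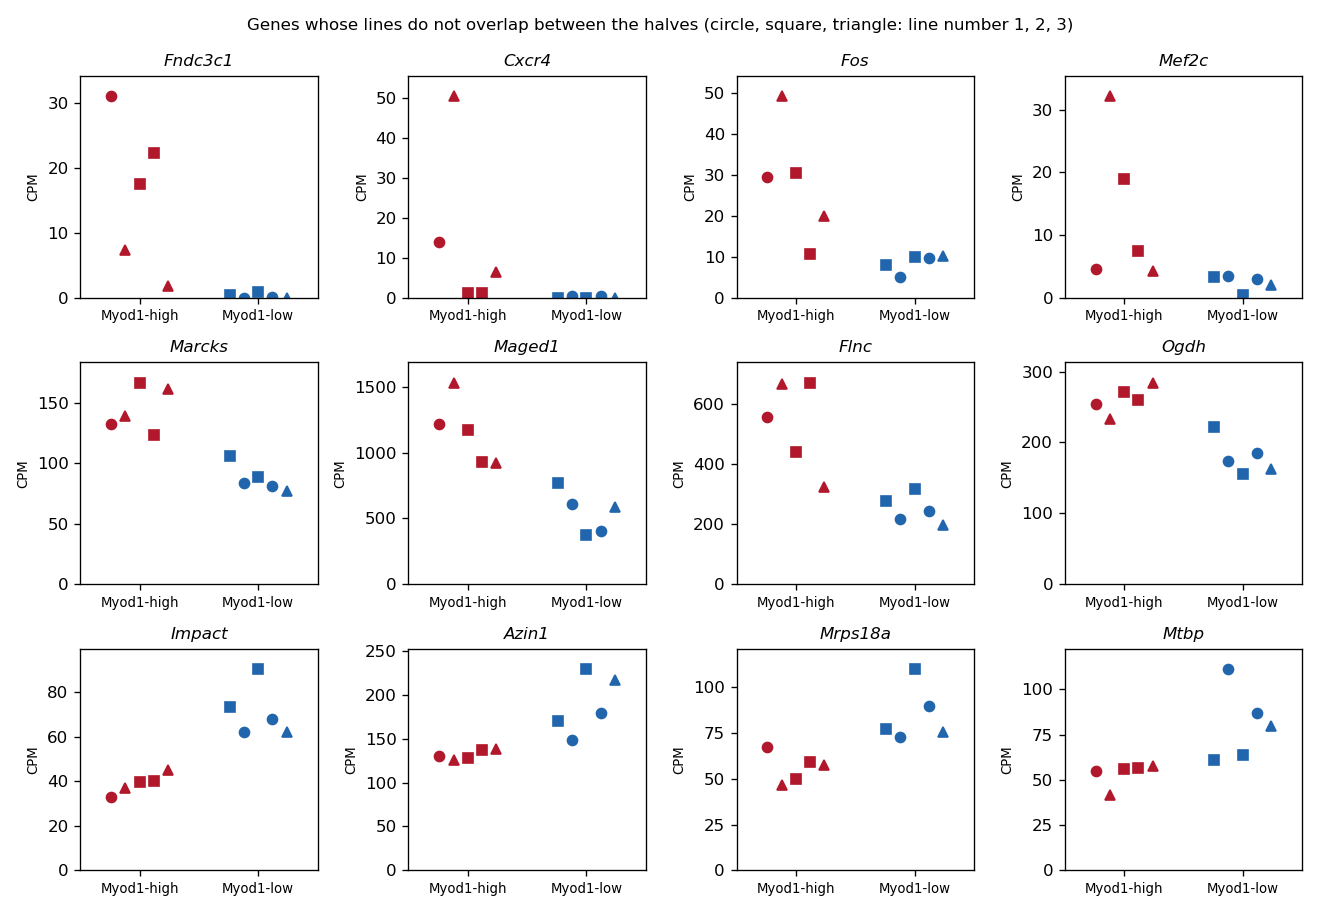
TMM-scaled CPM of 12 genes whose Myod1-high and Myod1-low lines do not overlap, on linear axes that start at 0, with 1 point per line and circles, squares and triangles for line numbers 1, 2 and 3. The upper 8 genes are above in all 5 Myod1-high lines and the lower 4 are below in all 5; Impact is at 33.2 to 45.1 CPM in Myod1-high lines and 62.3 to 90.5 CPM in Myod1-low lines.

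The subunits of the muscle acetylcholine receptor overlapped between the groups. Chrna1, the alpha subunit, was at 469, 186, 86.2, 116 and 80.8 CPM in Myod1-high lines 482, 468, 467, 464 and 471, and at 170, 254, 86.4, 181 and 11.4 CPM in Myod1-low lines 477, 483, 476, 466 and 469. Its log2 difference was 0.41 ± 0.708, with an adjusted p of 0.931. The fetal gamma subunit Chrng was at 1.73 to 78.5 CPM in Myod1-high lines and 0.0643 to 11.04 CPM in Myod1-low lines. The log2 difference of Chrng was 3.09 ± 1.25 (SE), with an unadjusted p of 0.0316 and an adjusted p of 0.855 by edgeR. The level of the delta subunit Chrnd was at 9.17 to 176 CPM in Myod1-high lines and 0.193 to 157 CPM in Myod1-low lines. Of 12 receptor and synapse genes tested, 7 had a positive difference. Their median log2 difference was 0.13, and leaving out each of the 10 lines in turn put it between -0.32 without line 482 and 0.30 without line 483, with every such value over 1.5 times away or of the other sign. The block by line number gave 0.72 and the generation covariate -0.21.

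Sarcomere genes, the contractile proteins of muscle, had the largest list median. Of 50 listed genes, 47 had a higher mean CPM in the Myod1-high lines, beside 52.0% of the 18911 genes with a count in any line. The 27 that could be tested had a median log2 difference of 2.18, beside -0.0047 over all tested genes. edgeR called 0 of them, and 14 had an unadjusted p under 0.05, beside 689 of all 12300 tested genes. Without line 468 the median was 1.27, and without lines 468 and 469 it was 1.08.

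Line 468 was the highest of the 10 lines for 22 of the 27 sarcomere genes, and line 469 was the lowest for 13. Acta1, skeletal alpha actin, was at 71.5, 486, 19.8, 165 and 26.8 CPM in Myod1-high lines 482, 468, 467, 464 and 471, and at 41.8, 1.62, 30.3, 0.919 and 0.772 CPM in Myod1-low lines 477, 483, 476, 466 and 469. Myod1-low lines 477 and 476 thus exceeded Myod1-high lines 467 and 471 for this gene. Tnni1, slow troponin I, was at 27.4, 190, 12.1, 22.2 and 12.7 CPM in the Myod1-high lines and at 11.52, 0.52, 4.67, 0.263 and 0.9 CPM in the Myod1-low lines. It was the only 1 of the 27 tested sarcomere genes whose groups did not overlap. Over all 12300 tested genes, 0.35% had every Myod1-high line above every Myod1-low line. The gap for Tnni1 was small, from 12.1 CPM in line 467 to 11.52 CPM in line 477.

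The other muscle lists had smaller medians. Of 32 satellite cell and myoblast genes listed besides Cdh15, 23 were tested, with a median log2 difference of 0.71 and 20 positive. Without line 468 the median was 0.32, with 15 of 23 positive. Of 29 fusion and early differentiation genes listed, 19 were tested, with a median of 1.00 and 17 positive. Tmem8c, the older symbol of the fusion gene Mymk, was at 0.631 to 60.2 CPM in Myod1-high lines and 0 to 3.94 CPM in Myod1-low lines. Des, the intermediate filament of muscle, was at 1276, 1538, 483, 270 and 53.6 CPM in Myod1-high lines 482, 468, 467, 464 and 471, and at 161, 473.9, 64.9, 126 and 0.193 CPM in Myod1-low lines 477, 483, 476, 466 and 469. Of 39 calcium handling and metabolism genes listed, 26 were tested, with a median of 1.07 and 22 positive. Stac3, a component of excitation-contraction coupling, was the only 1 of these 26 whose groups did not overlap. It was at 3.15 to 16.5 CPM in Myod1-high lines and 0.643 to 2.40 CPM in Myod1-low lines. Over all 12300 tested genes, 0.35% separated in this direction.

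Of 35 partners and inhibitors of Myod1 in the list, 31 were tested, 26 with a positive difference and a median of 0.34 on the log2 scale, which was 0.22 without line 468. Id1 was at 9.74 to 81.1 CPM in Myod1-high lines and 12.1 to 93.1 CPM in Myod1-low lines, and Id3 at 100 to 311 CPM in Myod1-high lines and 8.25 to 234 CPM in Myod1-low lines. Twist1 was at 83.4 to 100 CPM in Myod1-high lines and 55.8 to 149 CPM in Myod1-low lines. The inhibitors thus overlapped between the groups.

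**Figure D4:**
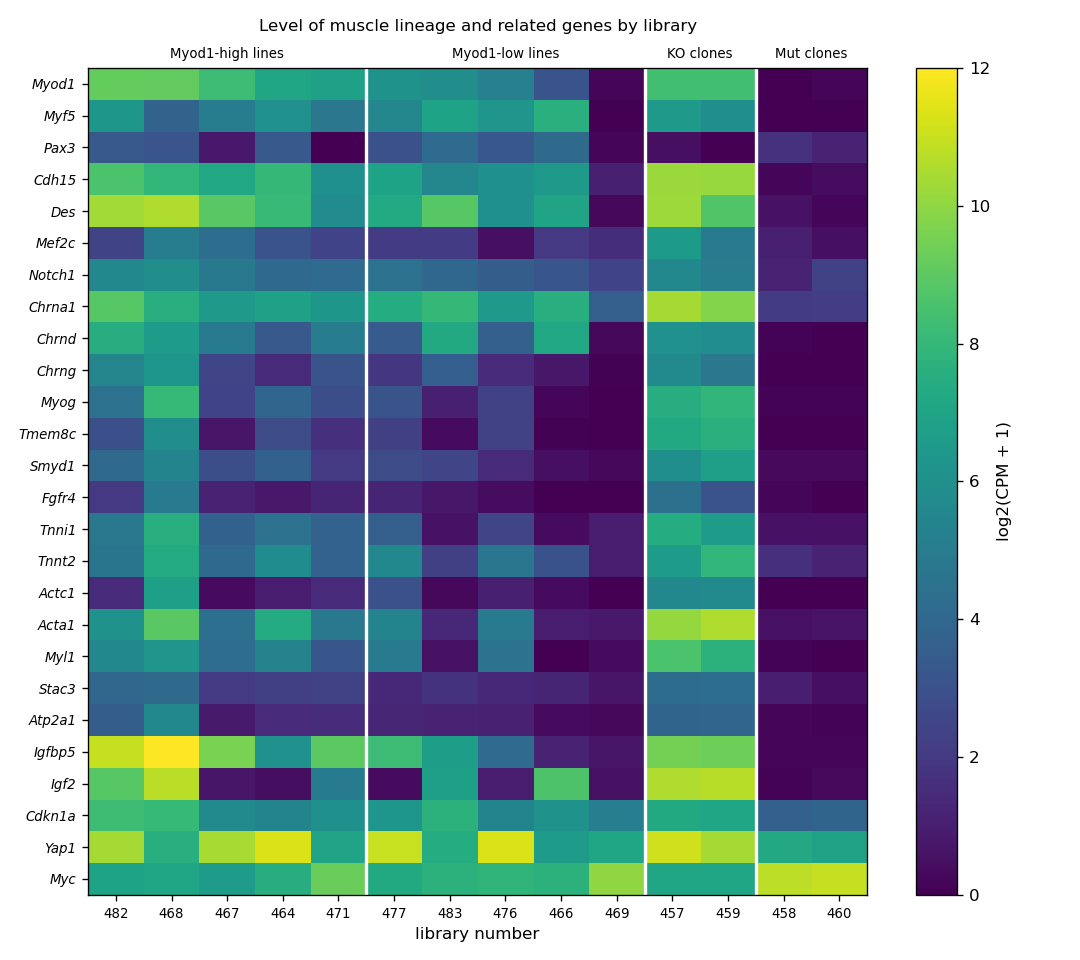
Level of 26 genes as log2(CPM + 1), with TMM-scaled CPM, in the Myod1-high lines, the Myod1-low lines, the KO clones and the Mut clones, with 1 column per library and yellow for high levels. Among the 10 lines, line 468 stands out for Myog, Acta1 and Actc1, while the KO clones reach 179 and 238 CPM of Myog. Line 469 and the Mut clones are dark for most muscle genes and bright for Myc.

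The genes most like Myod1 over the 10 lines, by Spearman correlation of CPM, were Ank1, Notch1, Smyd1, Chst11, Fam115a, Maged1 and Epha1, each at 0.939, followed by Ugdh and Mchr1 at 0.927 and Igfbp5 at 0.915. Smyd1, a muscle methyltransferase, was at 16.8, 41.3, 6.30, 12.3 and 3.06 CPM in Myod1-high lines 482, 468, 467, 464 and 471 and at 5.63, 4.68, 1.67, 0.394 and 0.193 CPM in Myod1-low lines 477, 483, 476, 466 and 469. Notch1 was at 16.2 to 59.8 CPM in Myod1-high lines and 4.31 to 21.9 CPM in Myod1-low lines. Igfbp5, a secreted binding protein of insulin-like growth factors, was at 66.3 to 3968 CPM in Myod1-high lines and 0.643 to 295 CPM in Myod1-low lines. These were chosen for their likeness to Myod1, so their values are a description.

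Outside the muscle programme, interferon response genes had the opposite sign. All 30 listed genes had a lower mean CPM in the Myod1-high lines. Of the 18911 genes with a count in any line, 52.0% had a higher mean there. The 28 tested interferon genes had a median log2 difference of -2.03, and edgeR called 0 of them, with 20 at an unadjusted p under 0.05. Of all 12300 tested genes, 289 were lower at that threshold. Ifit3, an interferon-induced protein, was at 1.05, 23.2, 3.64, 1.05 and 9.19 CPM in Myod1-high lines 482, 468, 467, 464 and 471, and at 2.27, 14.1, 49.3, 1.25 and 719 CPM in Myod1-low lines 477, 483, 476, 466 and 469. The groups overlapped for each of the 28 genes. Over all 12300 tested genes, 0.35% had every Myod1-high line below every Myod1-low line. Myod1-low lines 477 and 466 lay within the range of the Myod1-high lines for Ifit3. Line 469 was the highest line for 22 of the 28 genes and line 476 for 5. Without line 469 the median was -1.17.

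Cell cycle genes had a median log2 difference of -0.26, with 6 of 36 positive. The median was 0.02 without line 466, -0.04 without line 468, -0.17 without line 476, -0.42 without line 469 and -0.48 without line 464. Fibroblast and matrix genes had a median of 0.52, with 25 of 27 tested positive, and it was 0.13 without line 468, 0.31 without line 476 and 0.79 without line 477. Genes of the WNT pathway had a median of 0.59, with 26 of 29 tested positive, and it was 0.36 without line 468 and 0.96 without line 477. edgeR called 0 genes of each list.

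**Figure D5:**
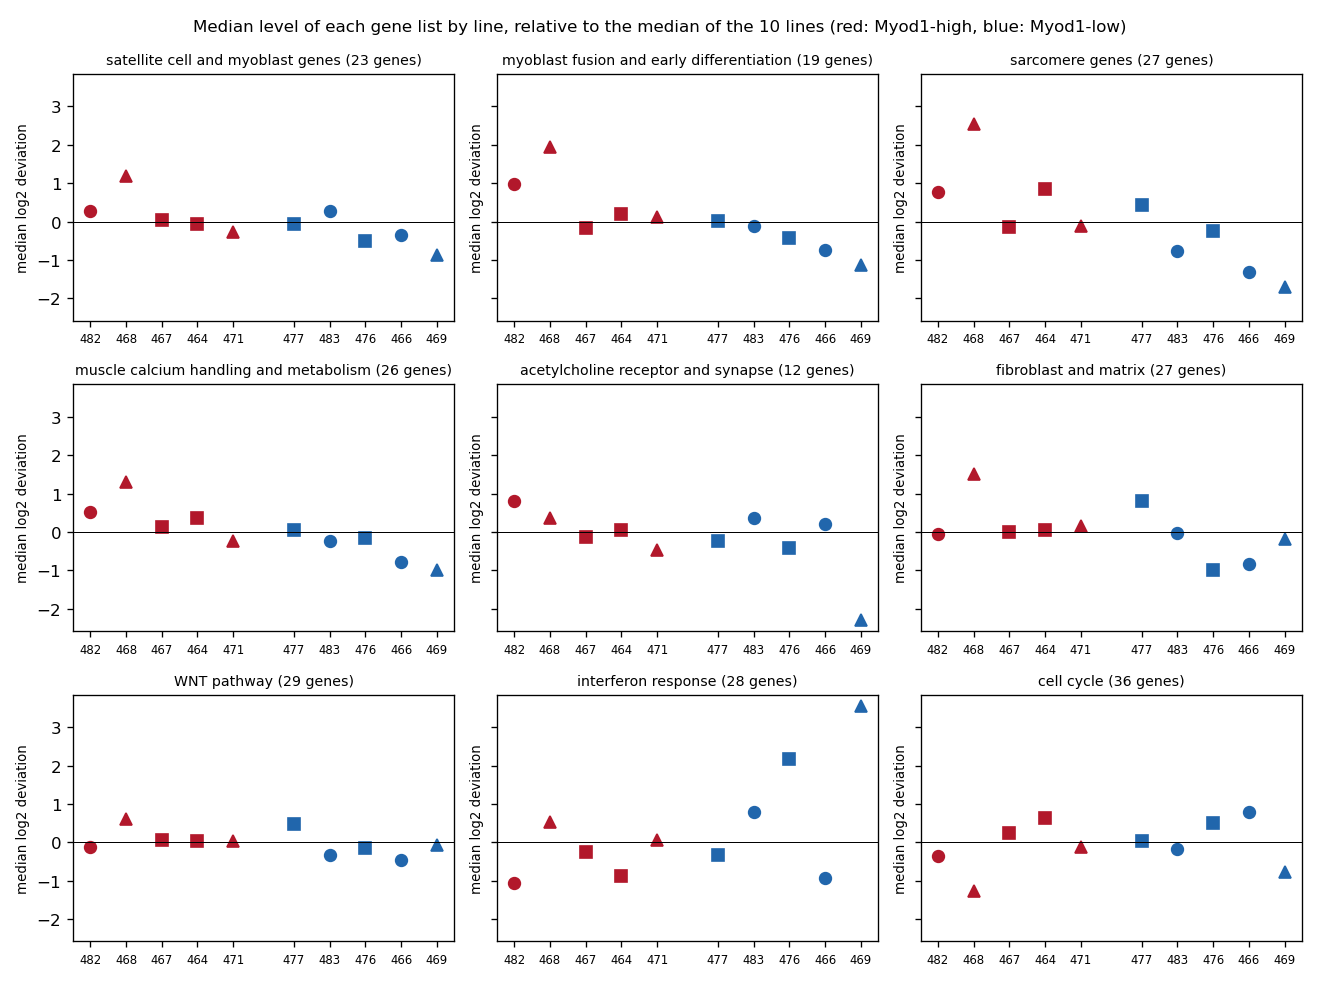
Median over the tested genes of 9 lists of the log2(CPM + 1) deviation from the median of the 10 lines, with 1 point per line, Myod1-high lines in red at the left and Myod1-low lines in blue, and circles, squares and triangles for line numbers 1, 2 and 3. For sarcomere genes line 468 lies at 2.54 and line 469 at -1.72, and for interferon response genes line 469 lies at 3.56 and line 476 at 2.17.

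Summed markers of other cell types overlapped between the groups, and their part in the differences above was not tested. Summed muscle lists overlapped too. The 50 sarcomere genes summed to 1895 to 3824 CPM in Myod1-high lines and 1047 to 2339 CPM in Myod1-low lines. For the 29 fusion and early differentiation genes the sums were 775 to 6948 CPM in Myod1-high lines and 267 to 1013 CPM in Myod1-low lines. The 30 fibroblast and matrix genes, of which only Tcf21 had 0 counts in all 10 lines, summed to 17777 to 39224 CPM in Myod1-high lines and 7503 to 29389 CPM in Myod1-low lines. The 19 smooth muscle and contractile genes summed to 3049 to 5607 CPM in Myod1-high lines and 2589 to 4893 CPM in Myod1-low lines. The summed CPM of 15 epithelial genes was 9.60 to 450 in Myod1-high lines and 15.2 to 318 in Myod1-low lines. The sum of the macrophage and haematopoietic genes was 15.6 to 49.5 CPM in Myod1-high lines and 20.7 to 67.7 CPM in Myod1-low lines, and that of 11 endothelial genes 3.15 to 13.7 CPM in Myod1-high lines and 3.31 to 18.3 CPM in Myod1-low lines. Neuronal and Schwann genes summed to 60.8 to 241 CPM in Myod1-high lines and 33.4 to 103 CPM in Myod1-low lines. Emcn and Sox17 of the endothelial list, and Elavl4, Sox10 and Foxd3 of the neuronal and Schwann list, had 0 counts in all 10 lines.

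H19 varied with the line number in both groups. Igf2 followed the number only in part, because line 469, which is not of number 2, was also under 1 CPM. H19, an imprinted non-coding RNA, was at 5019 and 1832 CPM in Myod1-high lines 467 and 464 and at 2020 and 226 CPM in Myod1-low lines 477 and 476, all of number 2, and under 2 CPM in the other 6 lines. Igf2, the imprinted growth factor beside H19, was under 1 CPM in the same 4 lines, and in the others at 465, 1725 and 30.3 CPM in Myod1-high lines 482, 468 and 471 and at 110, 403 and 0.45 CPM in Myod1-low lines 483, 466 and 469. Yap1, a co-activator of the Hippo pathway, was at 1324, 184, 1376, 2648 and 128 CPM in Myod1-high lines 482, 468, 467, 464 and 471, and at 2026, 171.7, 2546, 96.4 and 136 CPM in Myod1-low lines 477, 483, 476, 466 and 469. Both groups thus held lines with high and with low Yap1. Cdkn1a, the p53 target p21, was at 42.1 to 312 CPM in Myod1-high lines and 34.4 to 207 CPM in Myod1-low lines.

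Myc ran against Myod1 over the 10 lines, with a Spearman correlation of -0.806. It was at 122, 132, 94.9, 178 and 620 CPM in Myod1-high lines 482, 468, 467, 464 and 471, and at 157, 206, 232, 207 and 1042 CPM in Myod1-low lines 477, 483, 476, 466 and 469. The 2 highest lines, 471 of the high group and 469 of the low group, were both of number 3. The log2 difference was -0.66 ± 0.661, with an adjusted p of 0.882 by edgeR. Within line numbers 1, 2 and 3 the differences were -0.756, -0.549 and -1.86 on the log2(CPM + 1) scale. With line number as a block the difference was -0.86, with an unadjusted p of 0.0633 and an adjusted p of 0.711 by edgeR.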

How the data were processed

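Sequencing covered 17 libraries with single-end 60-base reads, per the labels' protocols. The submitters' processing notes name build mm10 and, upstream, DESeq2 1.6.3, HTSeq 0.6.1p1, TopHat2 2.0.10 and cutadapt; which tool did what, which gene annotation and which strand setting were used was not given in the sources used here. Whole-number counts, not normalized, were deposited by the authors for 23420 gene symbols, with 4 columns that match no sample and were not used.

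Lines were split at 100 CPM of Myod1. Counts were filtered with filterByExpr, TMM-normalized and tested with edgeR 4.0.16's quasi-likelihood test over the 10 lines in R 4.3.3, with Benjamini-Hochberg adjustment over 12300 genes, without Myod1. limma 3.58.1 (voom), DESeq2 1.42.0, other normalizations, filters, splits, covariates and subsets of lines were alternatives. All 3 tools were tested on simulated data, where edgeR and limma-voom kept their false calls near the nominal rate and DESeq2 exceeded it in every run, also when called directly. The simulation gave every gene the same spread beyond counting noise and had no line-number structure. It therefore does not show how many calls of each tool are false in the real lines. Log2 values within line numbers use a pseudocount of 1.

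Members and lists were chosen with earlier results of these data known. Named genes were those called, then up to 10 per direction of smallest p among genes that did not overlap and reached a mean of 10 CPM in the higher group, a fixed list, and the 10 most like Myod1; 1 gene of the fixed list is not reported here, and others named were picked from the lists after their values were seen. The titles do not say what the line numbers mark. Deviations of same-numbered lines from their group means correlated at 0.371, 0.475 and 0.530 between the groups, and lines of different numbers were not compared in this way. The libraries within a group differed by more than sampling noise.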

Additional observations from a re-analysis of the deposited data

Results flagged for a closer look

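Among 100 groups of 5 lines with values that differ, 6 held a line far from the others by Dixon's 95% value, where chance gives about 1 in 20. Line 469, among the Myod1-low lines, was low for Cdh15 at 1.09 CPM and for Myf5 at 0 CPM, and high for Myc at 1042 CPM. Line 468, among the Myod1-high lines, was high for Fgfr4 at 29.3 CPM and low for Mtbp at 41.4 CPM. Line 477, among the Myod1-low lines, was high for Fam115a at 49.7 CPM.

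The comparison of the lines did not use the clones. The KO clones had a mean of 329.5 CPM of Myod1, 1144 CPM of Cdh15 and 208 CPM of Myog (n = 2 each), and the Mut clones were below 1 CPM for all 3 genes.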

How the results depend on the processing

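limma-voom called 0 genes, and edgeR called 0 with every other normalization, filter, split at 50 or 200 CPM and the generation covariate, with TL1 lines only and without each line in turn. DESeq2 called 19 genes higher and 5 lower in the Myod1-high lines. On simulated data its false calls exceeded the nominal rate in every run, while those of edgeR and limma-voom stayed near it. The simulated lines had the same spread for every gene and no line-number structure, unlike the real ones, so these rates may not hold here. With Myod1 as a number, 1 gene was called lower, Fam84b. That fit used the Myod1 values that chose the lines. Fam84b was far higher in line 469, which had the least Myod1, than in the other lines, as given below. The fit with line number as a replicate block called 0 genes, so this block changed no call. Log2 differences with no call that changed sign were Myf5 at 0.94 with limma-voom and 0.35 under the block, and Pax3 at 0.086 under the block. With Myod1 as a number (per doubling) Pax3 was at 0.073, Id1 at 0.0084 and Twist1 at -0.046. With TL1 lines only, Chrnd was at -0.092, Id1 at 0.11, Yap1 at -0.36 and Myc at 0.26. The generation covariate put Chrnd at -0.35, the split at 50 CPM put Twist1 at -0.21, and the split at 200 CPM put Yap1 at -0.24. Without each line in turn, Chrnd ran from -0.63 to 0.73, Id1 from -0.65 to 0.15, Yap1 from -0.42 to 0.89, Myc from -1.45 to 0.20 and Chrna1 from -0.24 to 0.73. Without lines 468 and 469, chosen after seeing the data, Chrnd was at -0.39, Igf2 at -0.060 and Myc at 0.35. The cause of these changes was not tested.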

Other observations

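Several of the highest levels of single lines were shared by neighbouring genes, positions being from RefSeq on GRCm38.p6. The 3 regions were picked after their values were seen, and all tested genes within 1 Mb of Met, Myc and Yap1 that matched RefSeq by symbol are covered. DNA copy number was not measured here, and the cause was not tested.

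Around Met on chromosome 6, the 6 tested genes Tes, Cav2, Cav1, Met, Capza2 and St7 were 6.69, 9.81, 15.6, 14.4, 13.5 and 8.81 times the median of the 10 lines in Myod1-high line 468. In Myod1-low line 483 the same genes were at 3.29, 2.30, 2.30, 2.41, 2.25 and 2.87 times the median. In Myod1-low line 466 they were at 2.52, 1.68, 2.22, 1.66, 1.66 and 1.71 times.

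Around Myc on chromosome 15, Myc and the neighbouring non-coding Pvt1 were the 2 tested genes. Pvt1 was at 9.62 times the median in Myod1-high line 471 and 32.9 times in Myod1-low line 469, and Myc at 3.22 and 5.42 times. In the 2 Mut clones, which like line 469 had under 1 CPM of Myod1, Myc was at 9.17 and 10.3 times and Pvt1 at 34.8 and 45.7 times that median. Fam84b, the gene called lower with Myod1 as a number, was at 965 CPM in line 469 and at 1161 and 1835 CPM in the Mut clones, against 1.27 to 17.03 CPM in the other 9 lines. Ifit3 was at 719 CPM in line 469, 568 and 149 CPM in the Mut clones, and 0.708 and 0.319 CPM in the KO clones.

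Around Yap1 on chromosome 9, there were 9 tested genes. Of these, 7 (Dync2h1, Dcun1d5, Mmp13, Tmem123, Birc2, Birc3 and Yap1) were above the median in Myod1-high lines 482, 467 and 464 and in Myod1-low lines 477 and 476, and below it in the other 5 lines. Birc2 was at 1.67, 1.84 and 2.14 times the median in those Myod1-high lines and 2.17 and 2.42 times in those Myod1-low lines. Arhgap42 did not share this order, at 3.78 times the median in line 468.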
